A study of Mus musculus with 4 samples.

Results

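The 39 genes described here build, load and regulate the cell-surface complexes that show antigen to T cells, together with the ligands that accompany them. They were chosen as a fixed list of symbols from the 56832 genes listed in each library, and all 39 had a row. By role the list held 18 genes of MHC class I chains and peptide loading, 9 of MHC class II, 5 regulators, 5 costimulatory ligands and 2 presenters of lipids and metabolites. The samples were microglia, which are the brain's own macrophages, taken from mouse primary glial culture and sorted by flow cytometry, and RNA was sequenced in 4 libraries. All 4 libraries form 1 group of strain C57BL/6, labelled female and numbered as replicates 1 to 4, and no treatment, age, sort marker or transgene is given for it. Separate cultures or animals are not stated either, so each SD and p-value covers the library-to-library spread, possibly a technical one. The progenitor and co-culture groups named in the series' design were not analysed here, and the comparisons below are between genes and between libraries of 1 condition.

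MHC class I molecules present peptides made in the cytosol to CD8 T cells. They consist of a heavy chain and the light chain β2-microglobulin, and receive peptide in the endoplasmic reticulum from the TAP transporter. MHC class II molecules are dimers of an α and a β chain that take up peptides in endosomes and present them to CD4 T cells. The invariant chain holds the groove until the editor H2-DM removes its remnant. Microglia in the healthy brain are known for low class II expression, which interferon-γ raises through the coactivator CIITA.

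The libraries held 23212183 to 28469813 gene counts. Where a gene had 0 counts in a library, its level could still reach 3 counts, or 0.105 to 0.129 CPM (counts scaled to the same library total), by counting error alone. All 9 microglial markers examined reached 1 CPM in every library, with a median of 1367 TPM ± 78.7 (TPM being counts per gene length on a common total; SD, n = 4 as for every mean below). The lowest of them was Sall1, at 9.17 TPM ± 0.655. Of these markers P2ry12 varied between libraries (235.8, 185, 164 and 249 CPM, edgeR adjusted p = 0.001). Transcripts of 4 Y-linked genes were at 9.48 to 41.5 CPM in every library, which goes against the label of female sex. Of the 39 members, 33 (84.6%) reached 1 CPM in each library, beside 51.4% of protein-coding genes, and 9 averaged at least 100 TPM.

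**Figure D1:**
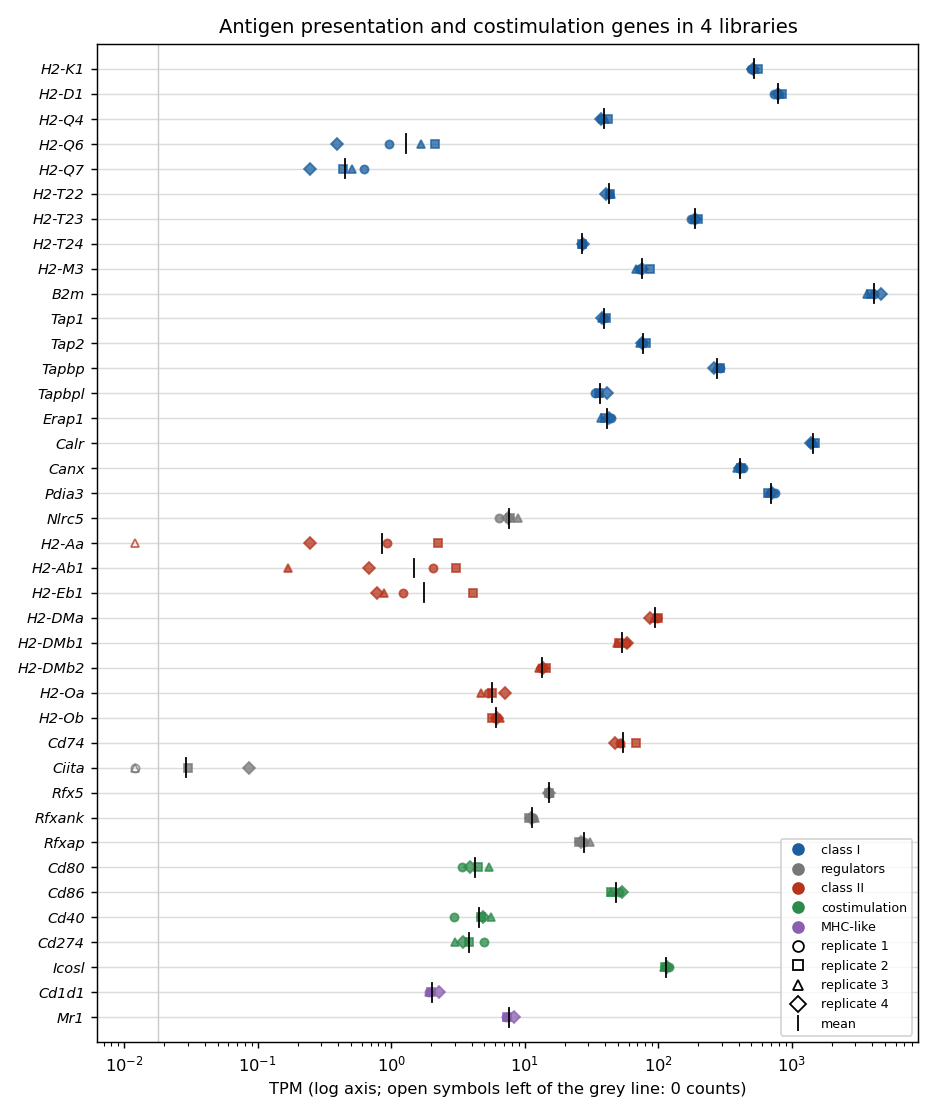
TPM of each member in each of the 4 libraries on a log axis, with 1 symbol per library, colours for the roles and a black line at the mean. Class I genes lie mostly between 26.9 and 4107 TPM, whereas the class II chains H2-Aa, H2-Ab1 and H2-Eb1 average 0.858 to 1.76 TPM and spread widely, and Ciita lies near 0.

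Among class I genes, the light chain exceeded all heavy chains together. B2m, which encodes β2-microglobulin, was at 4104, 3961, 3684 and 4681 TPM in replicates 1 to 4, above 99.9% of protein-coding genes. The 9 heavy chain genes summed to 1692 TPM ± 89.3. B2m exceeded this sum by 1.28 ± 0.185 on the log2 scale, in 4 of 4 libraries, although without gene length (CPM) the difference turned to -0.37, since B2m has 860 exon bases and the heavy chain genes have 1438 to 4265.

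The classical heavy chains, H2-K1 and H2-D1, made up most of the heavy chain level, at 1318 TPM ± 72.6 together. H2-D1, which presents peptides to CD8 T cells, was at 735, 845, 814 and 787 TPM. H2-K1, the other classical chain, was at 493, 555, 531 and 513 TPM. Both genes were highest in replicate 2 and lowest in replicate 1, with SDs of 46.5 TPM for H2-D1 and 26.4 TPM for H2-K1. H2-D1 stood above H2-K1 in every library, by 0.60 ± 0.0198 on the log2 scale. The size depends on the gene lengths, at 0.25 with the longest transcript and 0.42 without length (CPM).

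Non-classical heavy chains were lower. H2-T23, which encodes Qa-1, a ligand of inhibitory receptors on natural killer and T cells, was at 188 TPM ± 9.12. H2-M3, whose product presents formylated peptides, was at 75.4 TPM ± 7.68. H2-T22, a ligand of some γδ T cells, averaged 42.9 TPM ± 1.84, H2-Q4 39.2 ± 2.16 and H2-T24 26.9 ± 0.264. By the spread test described below, 0 of these 5 genes were called, beside 1.11% of all genes tested.

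The Qa-2 genes H2-Q6 and H2-Q7 stood apart from the other heavy chains. H2-Q6 had 16, 31, 24 and 7 counts in replicates 1 to 4, and H2-Q7 had 21, 13, 15 and 9. Their means were 1.29 TPM ± 0.761 and 0.453 TPM ± 0.157. Heavy chain genes resemble each other in sequence, so counts of these genes are uncertain. In GENCODE M21 transcripts, 87.0% of the 100-base windows of H2-Q6 and 88.0% of those of H2-Q7 occurred in no transcript of another gene, beside 85.9% for the far higher H2-Q4, 68.5% for H2-T22, 96.4% for H2-D1 and 99.0% for H2-K1. With 50-base windows the share was 65.0% for H2-Q6 and 46.5% for H2-T22. The read length is not given in the sources used here, and the part of shared sequence in these levels was not tested.

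All 8 genes of peptide supply and loading reached 1 CPM in each library, the lowest value being 33.8 TPM (Tapbpl). The transporter subunits TAP1 and TAP2 work as a heterodimer that carries peptides into the endoplasmic reticulum. Tap2 was at 77.4, 81.2, 73.7 and 76.2 TPM, and Tap1 was at 39.4, 40.8, 38.1 and 37.9 TPM. Tap2 thus stood above Tap1 by 0.98 ± 0.0242 on the log2 scale, and by 0.95 to 1.01 in single libraries. The mean was 0.63 with the longest transcript and 0.45 without length (CPM), so its size depends on the gene lengths. Tapbp, which encodes tapasin, the protein bridging TAP and class I, was at 277 TPM ± 14.7. Its relative Tapbpl, a peptide editor that works away from TAP, was at 36.8 TPM ± 3.13 and below Tapbp in every library, by a Tapbp over Tapbpl ratio of 2.91 ± 0.191 on the log2 scale. Erap1, the aminopeptidase that trims peptides to length, was at 41.0 TPM ± 2.94. Other genes' exons overlap 18.5% of the exon bases of Tap2, 29.0% of Tapbp and 11.5% of Erap1 in GENCODE M21. For heavy chains the share was 29.4% for H2-T22 and 19.1% for H2-Q4. The general chaperones of glycoprotein folding were highest, with Calr (calreticulin) at 1435 TPM ± 51.0, Pdia3 (the oxidoreductase ERp57) at 703 ± 38.5 and Canx (calnexin) at 412 ± 18.3.

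Class II genes were split by role. The peptide editors and the invariant chain were present in every library, whereas the antigen-binding chains were low and uneven, from 0 to 60 counts in a library. The level of H2-DMa, the α chain of the editor H2-DM, was 97.2, 100.05, 92.7 and 86.8 TPM. For the β chains, H2-DMb1 was at 57.2, 51.2, 49.6 and 58.0 TPM and H2-DMb2 averaged 13.5 TPM ± 0.657. H2-DMa over the sum of its β chains was 0.48 ± 0.149 on the log2 scale, so no partner of H2-DM was missing. The size of that ratio depends on the gene lengths, at 1.01 with the longest transcript and 1.502 without length (CPM). Of the chains of H2-O, which restrains H2-DM and is known mainly from B cells, H2-Ob was at 6.11 TPM ± 0.327 and H2-Oa at 5.71 TPM ± 1.05. With merged exon lengths H2-Ob was the higher in 3 of 4 libraries, at a log2 ratio of 0.11 ± 0.272 that was -0.0025 without replicate 3. With the length of the longest transcript the ratio was 1.04 ± 0.272, and without length (CPM) it was 2.00 ± 0.267, positive in 4 of 4 libraries under both. Cd74, the invariant chain, was at 51.8, 68.5, 52.3 and 47.3 TPM.

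The chains that would bind peptide were the lowest class II genes. H2-Aa, the α chain of I-A, had 28, 60, 0 and 8 counts in replicates 1 to 4, or 0.930, 2.26, 0 and 0.247 TPM. Its β partner H2-Ab1 had 42, 55, 3 and 15 counts, or 2.06, 3.06, 0.168 and 0.685 TPM. H2-Eb1, the β chain of I-E, had 19, 56, 12 and 13 counts, or 1.23, 4.11, 0.890 and 0.784 TPM. For each of these chains replicate 2 was highest, and for H2-Aa and H2-Ab1 replicate 3 was lowest. In sorted bulk cells, few cells with much of such RNA and many cells with little cannot be told apart.

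Both I-A partners were therefore scarce together, whereas the partner of I-E β was absent. Per length, H2-Ab1 lay above H2-Aa by 1.02 ± 0.427 on the log2(TPM + 0.1) scale and by 0.41 ± 0.191 with a pseudocount of 1. In counts H2-Aa was the higher in replicate 2 (60 against 55), and the 3 counts against 0 in replicate 3 lie within the counting limit. H2-Ea, the α chain that would pair with H2-Eb1, had 0 counts in all 4 libraries. C57BL/6 mice are known to carry a promoter deletion that silences this gene. Taking 3 counts of H2-Ea as the floor in each library, H2-Eb1 per length was 3.38, 9.95, 2.13 and 2.31 times that floor in replicates 1 to 4. The counting error of H2-Eb1 itself is not covered by these values.

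Cd74 and the H2-DM chains exceeded the antigen-binding chains in each library, whereas H2-Oa and H2-Ob lay below the chain sum in replicate 2. Per length and over the summed counts, H2-DMa was 113 times H2-Aa (exact binomial 95% interval 92.4 to 139.5, counting error only, 9841 against 96 counts). Replicate 2 held 60 of those 96 counts, and without it the ratio was 227 (164 to 325). Cd74 was 65.5 times H2-Aa (53.4 to 81.1), 37.0 times H2-Ab1 (30.7 to 45.0) and 32.2 times H2-Eb1 (26.4 to 39.7). Without replicate 2 these ratios were 124 for H2-Aa, 50.3 for H2-Ab1 and 52.0 for H2-Eb1. Within libraries the excess of Cd74 over the sum of the antigen-binding chains was smallest in replicate 2, at 2.85 on the log2(TPM + 0.1) scale, and largest in replicate 3, at 5.50. Cd74 ranged from 47.3 to 68.5 TPM, while the chain sum was 4.23, 9.43, 1.06 and 1.72 TPM in replicates 1 to 4.

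**Figure D2:**
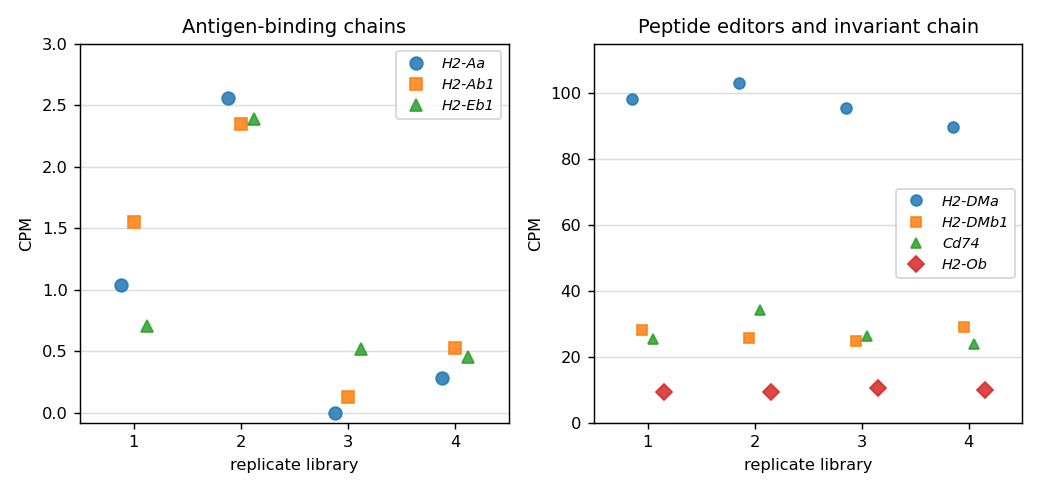
CPM of the antigen-binding chains H2-Aa, H2-Ab1 and H2-Eb1 (left, 0 to 3 CPM) and of H2-DMa, H2-DMb1, Cd74 and H2-Ob (right, on a larger axis) in each replicate library, with 1 point per gene and library. The chains lie at 2.35 to 2.56 CPM in replicate 2 and at 0 to 0.517 CPM in replicate 3, and the editors and Cd74 show no such swing.

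Whether genes varied between the libraries by more than genes of like abundance was tested with an edgeR deviance test across all genes. Of 34 members that passed the filter on low counts, 1 was called at an adjusted p under 0.05, beside 143 of 12879 genes tested (1.11%). That member was H2-Eb1 (edgeR, Benjamini-Hochberg adjusted p = 0.026). The call did not hold without replicate 2, 3 or 4 (edgeR adjusted p = 1, 0.10 and 0.11) or with DESeq2's dispersion trend (adjusted p = 0.58). H2-Aa, H2-Ab1, H2-Q6, H2-Q7 and Ciita did not pass that filter, which asks for a minimum in every library. H2-Ab1 had more counts in all than H2-Eb1 and was dropped with its 3 counts in replicate 3. With every gene of at least 1 count tested, 2 of 39 members were called, beside 154 of 22154 genes (0.695%). They were H2-Aa (edgeR adjusted p = 0.00015) and H2-Ab1 (edgeR adjusted p = 0.028), and H2-Eb1 was not (edgeR adjusted p = 0.54). Libraries were not left out in turn for that wider set, but H2-Ab1 passed the filter on low counts once replicate 3 was left out, and was then not called (edgeR adjusted p = 0.41). Cd74, which was also highest in replicate 2, had an unadjusted p = 0.048 and an edgeR adjusted p = 0.72.

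Markers of other cell types were set beside these chains. Of 9 dendritic cell markers, 3 reached 1 CPM in each library (Zbtb46, Batf3 and Itgax, at 1.91, 5.40 and 1.97 TPM), and the summed level of all 9 was 9.34, 10.9, 8.71 and 11.8 TPM in replicates 1 to 4. Cd209a and Ccr7 had 0 counts, and Xcr1 and Clec9a had 5 and 17 counts over all libraries. Siglech, also counted in this list, is known from microglia too but was not among the 9 microglial markers. It had 4, 15, 14 and 38 counts in replicates 1 to 4, a mean of 0.674 TPM. Of 6 B cell markers, 1 (Bank1, 2.25 TPM) reached 1 CPM in each library. Pax5 had 0 counts, and the B cell sum was 3.63, 2.74, 2.91 and 2.41 TPM. None of 6 T and NK cell markers reached 1 CPM in each library, and their sum was 0.160 to 0.394 TPM. Of 7 border macrophage markers 4 did (Ms4a7, Pf4, Mrc1 and Clec4n, at 523, 306, 292 and 100 TPM). The sum of the 7 was 1188 to 1317 TPM, with F13a1 at 0.281 TPM and Lyve1 and Cd163 at 0. Of 5 monocyte markers 1 did (Ccr2, 0.988 TPM), and Ly6c2 and Plac8 were at 0. Of 9 astrocyte markers 8 did, with a sum of 237, 365, 393 and 317 TPM, and Gfap, Clu and Slc1a3 varied by the spread test (edgeR adjusted p = 9.9e-06, 0.00021 and 0.015). Of 8 endothelial and mural markers 4 did, with a sum of 97.3, 127, 161 and 104 TPM, and Acta2 varied (edgeR adjusted p = 0.0041). The monocyte sum was 0.966, 1.52, 1.27 and 0.900 TPM. Within these lists Vcan, at 0.201, 0.277, 0.0798 and 0.154 TPM, was highest in replicate 2 and lowest in replicate 3, as H2-Aa and H2-Ab1 were, and Flt3 had 0, 5, 0 and 1 counts. The part of such cells in the class II level was not tested.

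The gene of the class II regulator, Ciita, was nearly absent too. CIITA has no DNA-binding domain and acts on the RFX complex, CREB and NF-Y assembled at MHC promoters, as its relative NLRC5 does for class I. Ciita had 0, 2, 0 and 7 counts in replicates 1 to 4, a mean of 0.0290 TPM ± 0.0406. With every gene of at least 1 count tested for spread, Ciita was not called (edgeR adjusted p = 0.97). Its counts are too few to rank the libraries, and its part in the class II level was not tested. Nlrc5 was at 6.39, 7.70, 8.95 and 7.52 TPM. Per length and over summed counts, Nlrc5 was 244 times Ciita (exact binomial 95% interval 129 to 535, counting error only, 1960 against 9 counts). Replicate 4 held 7 of the 9 Ciita counts, and without it the ratio was 794 (219 to 6565, 1415 against 2 counts).

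The DNA-binding partners shared by both arms were present in every library. By the spread test 0 of 3 RFX genes were called, beside 1.11% of all genes tested. Rfx5, which encodes the DNA-binding subunit of RFX, was at 14.96, 15.1, 15.3 and 15.2 TPM. Rfxap, an RFX accessory subunit, was at 27.7 TPM ± 2.17, and Rfxank, the third subunit, at 11.3 TPM ± 0.485. Other genes' exons overlap 33.8% of the exon bases of Rfxank and 26.8% of Rfx5 in GENCODE M21, so these counts are uncertain. The spread test, which called 1.11% of all genes tested, called 0 of 5 further factors of the class II promoter. All 5 factors reached 1 CPM. These were the NF-Y subunit genes Nfya (64.4 TPM ± 3.05), Nfyc (34.5 ± 2.13) and Nfyb (11.3 ± 0.622), with Creb1 (17.7 ± 1.75) and Rfx1 (14.98 ± 0.501).

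Promoter sequences are shown because some genes at opposite ends of the expression range carry the X2 and Y box letters at like spacing. No box of RFX was searched for. The stretches lie upstream of the start site and come from RefSeq promoters on GRCm38.p6. Capitals mark TGANG, the letters at the core of the X2 box bound by CREB, and ATTGG, the Y box bound by NF-Y. B2m is on chromosome 2 and the others are on chromosome 17, at chr17:34000348-34000413 (H2-K1, minus strand), chr17:35262968-35263037 (H2-D1, plus), chr2:122147584-122147653 (B2m, plus), chr17:34287852-34287922 (H2-Aa, minus), chr17:34305759-34305827 (H2-Eb1, plus), chr17:34153080-34153149 (H2-DMb1, plus) and chr17:34238801-34238867 (H2-Ob, plus).
H2-K1: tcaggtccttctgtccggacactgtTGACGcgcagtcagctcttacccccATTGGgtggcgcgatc
H2-D1: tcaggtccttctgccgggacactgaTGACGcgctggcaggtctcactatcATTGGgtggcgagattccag
B2m: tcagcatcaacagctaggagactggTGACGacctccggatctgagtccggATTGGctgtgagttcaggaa
H2-Aa: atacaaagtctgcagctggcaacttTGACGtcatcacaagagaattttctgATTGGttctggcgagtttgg
H2-Eb1: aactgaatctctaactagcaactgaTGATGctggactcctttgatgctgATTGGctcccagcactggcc
H2-DMb1: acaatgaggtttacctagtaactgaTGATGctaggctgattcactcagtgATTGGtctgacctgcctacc
H2-Ob: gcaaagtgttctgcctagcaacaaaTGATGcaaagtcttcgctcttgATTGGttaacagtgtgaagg

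In the strand of the gene, the boxes were separated by 20 bases in H2-K1, H2-D1, B2m and H2-DMb1, by 21 in H2-Aa, by 19 in H2-Eb1 and by 17 in H2-Ob. The level was 4107 TPM for B2m and 0.858 TPM for H2-Aa, and the bearing of this spacing on level was not tested. TGANG followed by ATTGG after 15 to 25 bases, on either strand and within 250 bases upstream, was found for 12 of the 28 members with a promoter in the table (13 of 30 promoters, 43.3%), beside 2.46% of all 32851 promoters. These were 6 class I heavy chains (H2-K1, H2-D1, H2-Q4, H2-Q6, H2-Q7 and H2-M3), B2m, and the class II genes H2-Aa, H2-Eb1, H2-DMb1, H2-DMb2 and H2-Ob. The class I genes H2-T22, H2-T23, Tap1, Tapbp, Erap1, Calr, Canx and Pdia3 had a promoter without it. So did the class II genes H2-DMa and H2-Oa, and Rfx5, Rfxank, Cd80, Cd274, Icosl and Mr1. The spacing was set after looking at the members' promoters, so these shares are a description. ATTGG alone, on either strand, was in 83.3% of the members' promoters and 33.8% of all promoters.

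**Figure D3:**
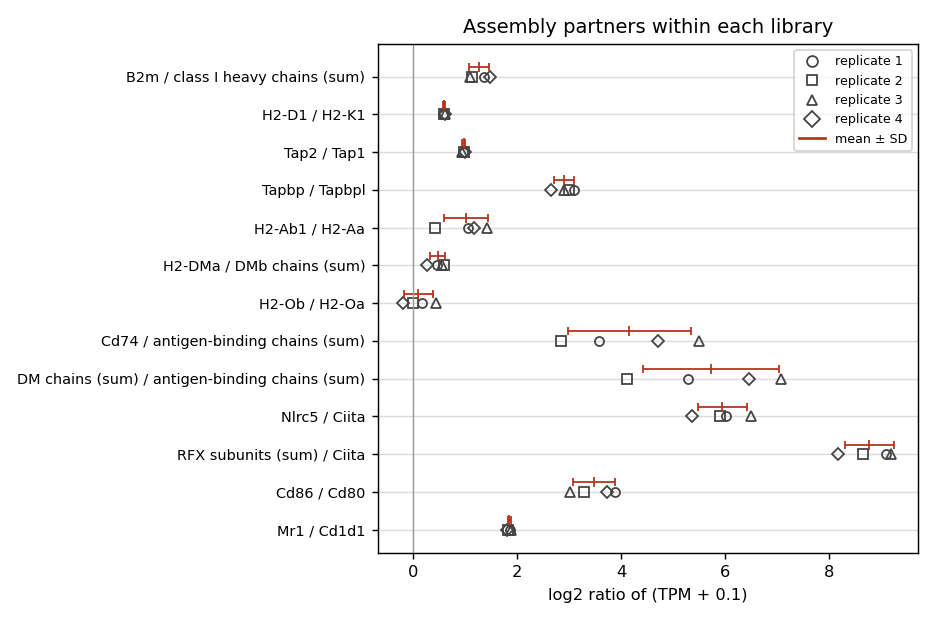
Log2 ratios of (TPM + 0.1) between assembly or functional partners, with 1 symbol per library and the mean ± SD in red above. Tap2 over Tap1 (0.98 ± 0.0242) and Mr1 over Cd1d1 (1.85 ± 0.0321) are tight. Ratios of Cd74 and the H2-DM chains to the class II antigen-binding chains spread over several log2 units. Those to Ciita are set in part by the pseudocount (Nlrc5 over Ciita is 5.95 at 0.1 and 3.06 at 1).

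Ratios within class I varied less from library to library than those involving the antigen-binding chains. The SD of the log2 ratio was 0.0198 for H2-D1 over H2-K1, 0.185 for B2m over the heavy chains and 0.191 for Tapbp over Tapbpl. Steady ratios were not particular to class I, with SDs of 0.0321 for Mr1 over Cd1d1 and 0.149 for H2-DMa over its β chains. For H2-Ob over H2-Oa the SD was 0.272, and for Cd86 over Cd80 it was 0.399. The SD was 0.427 for H2-Ab1 over H2-Aa, 1.18 for Cd74 over the antigen-binding chains and 1.30 for the H2-DM chains over them. The antigen-binding chains summed to 15 to 171 counts in a library, so counting error and the pseudocount add to these last SDs. Of 14 ratios examined, 13 kept 1 sign throughout (two-sided exact permutation of signs, p = 0.125 for each, the smallest possible with 4 libraries, and 0.135 after Benjamini-Hochberg adjustment over the 14). The exception was H2-Ob over H2-Oa (exact permutation p = 0.625).

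Costimulatory ligands divided into 2 that were clearly expressed and 3 that were low. Icosl, the ligand of ICOS on activated T cells, was at 120.1, 113, 111 and 117 TPM. Cd86, a ligand of CD28 and CTLA-4, was at 50.8, 44.5, 44.2 and 53.3 TPM. The related ligand Cd80 was at 3.37, 4.47, 5.37 and 3.89 TPM. Cd86 exceeded Cd80 in every library, by 3.48 ± 0.399 on the log2 scale. Cd40, the receptor through which T cells license antigen-presenting cells, was at 2.96, 4.70, 5.59 and 4.89 TPM. Cd274, which encodes the inhibitory ligand PD-L1, was at 4.98, 3.83, 3.03 and 3.43 TPM, highest in the library where Cd40 and Cd80 were lowest. Of the 5 ligands, 0 were called by the edgeR spread test, beside 1.11% of all genes tested.

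Outside the list, 12 further costimulatory and coinhibitory ligands were examined. The checkpoint protein gene Vsir (VISTA) was at 723 TPM ± 30.5, above each costimulatory member in all libraries, and the galectin gene Lgals9 was at 259 ± 12.5. Pdcd1lg2, which encodes PD-L2, Vtcn1 and Cd70 had 0 counts. Tnfsf4, the OX40 ligand, had 2 counts in all and Tnfsf18 had 16.

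The presenters of non-peptide antigens were low. Mr1, which presents vitamin B metabolites to MAIT cells, was at 7.25, 7.40, 7.35 and 8.31 TPM. Cd1d1, which presents lipids to NKT cells, was at 1.91, 2.00, 1.91 and 2.28 TPM. Mr1 exceeded Cd1d1 by 1.85 ± 0.0321 on the log2 scale, and the near copy of Cd1d1, Cd1d2, had 0 counts.

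The machinery around class I and class II was expressed. All 5 genes of the immunoproteasome and its activator were present, with Psme1 at 186 TPM ± 9.25 and Psme2 at 185 ± 17.7 highest and Psmb8 (123 ± 8.71) and Psmb9 (28.7 ± 1.91) lowest. All 6 endosomal protease and reductase genes averaged over 100 TPM, with Ctsd highest at 13705 ± 533 and the thiol reductase gene Ifi30 (127 ± 11.2) and Ctsl (122 ± 4.59) lowest. Ctss, the protease known to cut the invariant chain in such cells, was at 5050 ± 370. In the interferon-γ route that induces CIITA, all 9 genes reached 1 CPM. The receptor gene Ifngr1 was at 552 ± 17.6 and Irf8 at 302 ± 8.64, while Jak2 (28.0 ± 4.48) and the feedback inhibitor Socs1 (2.84 ± 0.462) were lowest. The transcription factor gene Irf1 was at 38.2 ± 2.26. Marchf1 and Marchf8, ubiquitin ligases that take class II and CD86 off the surface, were at 47.2 ± 7.24 and 39.3 ± 0.860, and Marchf9 at 16.9 ± 0.441. Of 37 tested genes in these and the other pathway lists, 0 were called by the spread test, beside 1.11% of all genes tested. Of 11 other MHC chain genes with a row, 7 had 0 counts in every library (H2-Ea, H2-Eb2, H2-Q1, H2-Q2, H2-T3, H2-Bl and Cd1d2), whereas Fcgrt, the neonatal Fc receptor chain that pairs with β2-microglobulin, was at 159 ± 6.21 and H2-T10 at 1.52 ± 0.137.

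Set side by side, the class I arm was the highest. Its 18 genes had a median of 76.3 TPM ± 5.30 and a sum of 8820 ± 380, the 9 class II genes had a median of 6.34 ± 0.633 and a sum of 232.6 ± 16.4, and the 5 costimulatory ligands had a median of 5.04 ± 0.385 and a sum of 176 ± 7.02. In differences of medians on the log2(TPM + 1) scale, class I lay above class II by 3.40 ± 0.191 and above costimulation by 3.68 ± 0.181, in 4 of 4 libraries. Costimulation minus class II was -0.28 ± 0.130, and with means over members it was 0.49, so the order of these arms depends on the summary. No p-value is given for these differences, since the members were chosen with results known.

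The spread of single members ranged widely. Rfx5 and H2-T24 had the smallest SDs of log2 CPM among the 34 members that passed the filter, at 0.0146 and 0.0200. Among them, the largest after H2-Eb1 were those of Cd40 (0.351), Cd274 (0.277) and Cd80 (0.252). The 5 members that the filter dropped had larger coefficients of variation of TPM, from 34.6% for H2-Q7 to 59.2% for H2-Q6, 88.0% for H2-Ab1, 118% for H2-Aa and 139.9% for Ciita, beside 24.6% for Cd40. B2m, highest in replicate 4 and lowest in replicate 3, had an unadjusted p = 0.034 and an edgeR adjusted p = 0.62. An unadjusted p under 0.05 was found for 3 of 34 members, beside 6.79% of all genes tested. Of the members tested, 15 (44.1%) were lowest in replicate 3, beside 25.1% of all genes tested, and 12 (35.3%) were highest in replicate 2, beside 23.9%.

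**Figure D4:**
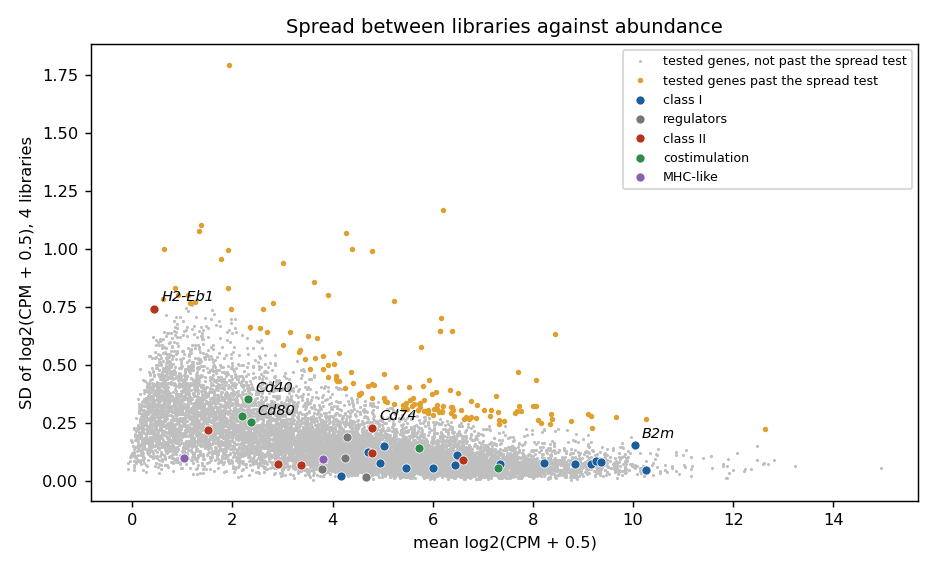
SD of log2(CPM + 0.5) over the 4 libraries against its mean for the 12879 genes tested, with genes past the spread test in yellow and members coloured by role. H2-Eb1 is the member past the test, with an SD of 0.742. The median SD was 0.0871 for the 34 members tested and 0.124 for all genes tested, without matching for abundance.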

How the data were processed

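Each of the 4 libraries of cultured microglia had 1 file of gene counts, which the authors deposited as whole numbers of reads by symbol, with no normalization. The submitters' processing notes name HTSeq 0.11.2, STAR 2.7.10a, SAMtools 1.16.1 and the build mm39 (GRCm39). Annotation, strand setting and overlap mode are unstated, so reads of overlapping, antisense or near-identical genes may have been lost or mixed. The HTSeq summary lines (11.8% ± 0.159 of reads) were left out.

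CPM used summed gene counts. TPM used merged exon lengths from GENCODE M21 (GRCm38, used for lengths, gene types and overlaps only), by symbol or a unique RefSeq synonym, for 99.7% of counts. Spread between libraries was tested in edgeR 4.0.16 (R 4.3.3) with 1 mean per gene, TMM scaling, filterByExpr and trended dispersion, each deviance against a chi-square distribution with Benjamini-Hochberg adjustment over all genes at 0.05; the procedure was tested on simulated data. DESeq2 1.42.0 gave alternatives. Ratios were tested by exact sign-flip permutation. All 39 members are named. Of the other lists, the rule names the 2 highest and 2 lowest genes, those at 0 and those past the spread test, and others were named after their values were seen. Some genes of these lists are not reported here. Members and lists were chosen with earlier results of these data known.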

Additional observations from a re-analysis of the deposited data

Results flagged for a closer look

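In groups of 4 libraries, a library standing far from the other 3 was sought for 56 results (the 39 member levels, the partner ratios and the arm differences), and chance flags about 1 in 20. There were 2. The TPM of H2-Eb1 was 4.11 in replicate 2 and 0.784 to 1.23 in the other libraries, a gap of 0.865 of the whole range. The TPM of Mr1 was 8.31 in replicate 4 and 7.25 to 7.40 in the others, a gap of 0.858 of the range, although Mr1 did not pass the spread test (edgeR adjusted p = 1).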

How the results depend on the processing

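All 39 CPM levels stayed within 1 SD under TMM scaling, and 25 of 39 TPM levels moved by more than 1 SD with the length of the longest transcript. Members past the spread test numbered 0 to 1 when 1 replicate was left out, 0 with DESeq2's dispersion trend and 2 without the filter on low counts; the last was not H2-Eb1 but H2-Aa and H2-Ab1. Of all genes, 532 passed with a common dispersion (81 shared with the 143 reported) and 47 (without replicate 1) to 118 with 1 replicate left out, with 52 without replicate 3. Class I minus class II, on the log2 scale, was 2.57 with the longest transcript and 2.40 with a pseudocount of 10. Class I minus costimulation was 2.79 when means replaced medians, 3.89 at a pseudocount of 0.1 and 2.52 at 10. Costimulation minus class II was -0.99 with the longest transcript, -0.12 with a pseudocount of 10 and 0.49, reversed, with means. The partner ratios kept their sign under each alternative, except B2m over the heavy chains on CPM (-0.37) and H2-Ob over H2-Oa, which was -0.0025 without replicate 3, 0.21 without replicate 4, 1.04 with the longest transcript and 2.00 on CPM. Leaving out each library for the summed-count ratios was chosen after seeing the data. For H2-Eb1 the edgeR adjusted p ranged from 3.7e-06 to 1. The cause of these changes was not tested beyond the gene lengths used. Depth limits the class II chains and Ciita, where 3 counts are 0.105 to 0.129 CPM.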
